A study of Mus musculus with 6 samples.

Results

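The genes described here encode 37 proteins of DNA replication and cell division, and they were chosen from a list of gene names. They are the 6 subunits of the MCM helicase, 5 proteins of nucleotide supply and the replication clamp, and 6 that are cyclins or Cdk1. The other 20 are proteins of mitosis, cytokinesis and chromosome structure. The deposited table lists 43432 genes and writes their names in capitals, so names were matched without regard to case, and each of the 37 names then met exactly 1 row. RNA was sequenced from the right and left atria of C57BL/6J wild-type mice, 3 fed a high-fat diet (obese) and 3 fed control chow (lean) for 10 weeks from 6 weeks of age. No transgene, gene deletion or drug was given to either group, and the obese mice differ from the lean mice by their diet. The diet of each mouse follows its sample title, which matches the table's column name, while the treatment field of the labels names the opposite diet for all 6 samples. Every direction below therefore rests on the titles. Values are normalized counts, that is, the reads of a gene divided by 1 size factor per mouse. Totals ran from 15874251 to 28971508 reads per mouse, with lean mouse 2 the deepest, and 3 reads corresponded to 2.05 to 3.41 normalized counts.

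A cell copies its DNA in S phase and separates the copies in mitosis. The MCM helicase is loaded on replication origins and unwinds the DNA, Pcna holds the polymerases on the template, and ribonucleotide reductase, thymidylate synthase and thymidine kinase supply the nucleotides. Cyclins activate Cdk1 and related kinases, the Aurora and Polo kinases build the spindle, the checkpoint proteins hold the chromosomes until they are attached, and the central spindle proteins divide the cell. E2F factors are known to drive the replication genes and the MuvB complexes the mitotic genes, the latter through a promoter element called CHR, while p21, the product of Cdkn1a, inhibits the cyclin-dependent kinases. Cardiac myocytes of the adult heart seldom divide, and most of the dividing cells in this tissue are known to be non-myocytes.

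The promoters of 4 members are shown because they hold the elements through which mitotic and replication genes are known to be driven. Cenpf gave the smallest p of the members, Ube2c and Cdk1 are among the genes that stood highest in obese mouse 3, and Mcm6 differed least between mice among the helicase subunits. Each sequence runs 5 prime to 3 prime on the strand of the gene, from 250 bases before to 30 bases after the RefSeq start site, in build GRCm38.p6. Capitals mark the CHR element (TTTGAA, or TTCAAA on the other strand) and the CCAAT box (CCAAT or ATTGG) in Cenpf, Ube2c and Cdk1, and also the E2F site in Cdk1. In Mcm6 only E2F sites are in capitals. The Cenpf promoter lies on the minus strand at chr1:189688057-189688336, Ube2c on the plus strand at chr2:164769679-164769958, Cdk1 on the minus strand at chr10:69352883-69353162 and Mcm6 on the minus strand at chr1:128359676-128359955.
Cenpf: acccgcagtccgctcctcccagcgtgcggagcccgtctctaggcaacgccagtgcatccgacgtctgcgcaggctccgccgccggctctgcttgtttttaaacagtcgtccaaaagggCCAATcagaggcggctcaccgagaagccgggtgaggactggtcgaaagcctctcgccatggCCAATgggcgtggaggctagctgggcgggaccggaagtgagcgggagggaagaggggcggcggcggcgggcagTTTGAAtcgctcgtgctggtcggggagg
Ube2c: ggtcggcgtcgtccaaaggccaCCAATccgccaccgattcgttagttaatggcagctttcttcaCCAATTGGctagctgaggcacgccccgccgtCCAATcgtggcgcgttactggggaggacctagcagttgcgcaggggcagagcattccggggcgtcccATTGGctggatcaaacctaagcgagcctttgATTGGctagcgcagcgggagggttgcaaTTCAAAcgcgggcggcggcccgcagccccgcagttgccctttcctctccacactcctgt
Cdk1: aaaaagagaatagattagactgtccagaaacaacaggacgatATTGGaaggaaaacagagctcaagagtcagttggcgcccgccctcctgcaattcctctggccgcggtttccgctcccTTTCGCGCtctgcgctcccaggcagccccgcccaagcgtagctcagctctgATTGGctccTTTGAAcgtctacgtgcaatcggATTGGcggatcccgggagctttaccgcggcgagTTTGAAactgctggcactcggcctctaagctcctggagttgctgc
Mcm6: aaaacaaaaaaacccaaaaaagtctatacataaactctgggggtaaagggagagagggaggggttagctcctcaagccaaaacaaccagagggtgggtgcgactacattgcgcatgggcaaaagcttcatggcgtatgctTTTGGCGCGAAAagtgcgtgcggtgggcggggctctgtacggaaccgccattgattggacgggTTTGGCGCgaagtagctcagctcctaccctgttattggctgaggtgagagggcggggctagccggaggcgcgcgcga

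Cenpf held 1 CHR element, at position 2 counted from the start site, and 2 CCAAT boxes, at -132 and -71. Ube2c held 1 CHR element at -29 and 6 CCAAT boxes, of which those at -186 and -183 overlap. Cdk1 held 2 CHR elements, at -71 and -15, 3 CCAAT boxes and 1 E2F site at -131. Mcm6 held no CHR element and 3 E2F sites, of which those at -110 and -106 overlap. Over the 32 members with a RefSeq window of 250 bases before to 50 after the start site, on both strands, the CHR letters were found in 17 (53.1%), against 20.2% of 27025 mouse genes with a window and 17.9% of all 32851 windows. They were found in 12 of 16 genes of the mitotic kinase, checkpoint, kinetochore and cytokinesis groups and in 1 of 10 of the replication genes. The CCAAT letters were found in 27 of the 32 members (84.4%, against 41.1% of genes and 37.4% of windows). The 8-letter E2F words TTTCCCGC, TTTCGCGC, TTTGCCGC and TTTGGCGC, or their complements, were found in 5 (15.6%, against 2.6% of genes and 2.26% of windows), which were 4 of the 5 MCM genes with a window and Cdk1. No window was at hand for Mcm4, Ccne2, Ccna2, Aurkb and Tpx2. These matches are descriptions of letters, and binding was not measured.

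All members were transcribed in the atria at low to moderate levels, and none differed between obese and lean mice past the threshold. Mean normalized counts ran from 5.78 for Bub1 to 475 for Pcna, and none of the 222 values was 0. Scaled by the length of the gene's exons, the highest level was that of Pcna, at 198 normalized counts per kilobase, followed by Mcm4 at 69.7 and Mcm7 at 57.0. The lowest levels per kilobase were 1.32 for Cenpe, 1.33 for Bub1 and 1.33 for Hmmr. Expression was thin for most members, as 25 of 37 averaged under 50 normalized counts and 7 averaged 100 or more. Ccnb1, Bub1 and Hmmr averaged under 10 normalized counts and were not tested, so 34 members were.

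With limma on log2(normalized count + 1) and Benjamini-Hochberg adjustment over 15275 genes, 0 of the 34 members had an adjusted p under 0.05, against 0.746% of all genes tested. The smallest adjusted p was 0.303, for Cenpf. At an unadjusted p under 0.05, 1 member passed, Cenpf, which was lower in obese mice, and 0 were higher, against 12.2% of all genes, 5.55% lower and 6.66% higher. edgeR's quasi-likelihood test and DESeq2 on the recovered reads also gave 0 members at an adjusted p under 0.05 and 1 at an unadjusted p under 0.05. The groups did not overlap for 3 of the 37 members, Mcm3 and Ube2c with all obese mice above and Cenpf with all obese mice below, against 18% of all genes. The median log2 fold change of obese against lean mice was 0.02 over the 34 members and 0.0049 over all genes tested, and 19 members lay above 0 (50.8% of all genes did). The fold changes ran from -0.78 to 0.97, and 28 of the 34 were within 0.5 of 0.

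How large a difference these data could have missed varied with expression. The 95% interval of the log2 fold change lay wholly between -1 and 1, a 2-fold change in either direction, for 16 of 34 members, against 74.1% of all genes. It did so for all 7 members with a mean of 100 or more, and for 5 of 22 with a mean of 10 to 50. The distance from the estimate to the end of its interval ran from 0.28 for Pcna to 1.59 for Cdca8. For 13 of the 16 mitotic genes tested the interval reached past a 2-fold change in at least 1 direction, so the absence of a call there is no sign of equal levels.

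**Figure D1:**
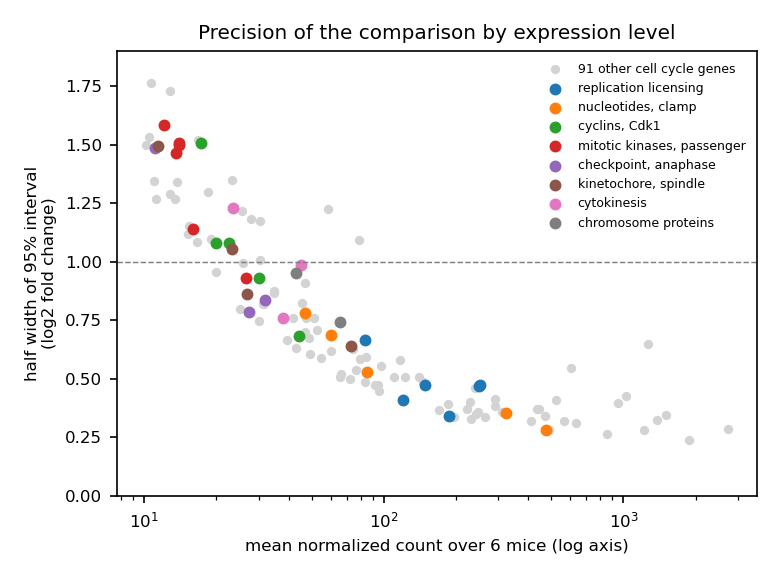
Distance from the estimated log2 fold change to the end of its 95% interval, against the mean normalized count over the 6 mice on a log axis, for the 34 members tested (coloured by role) and 91 other cell cycle genes (grey). The dashed line marks 1, a 2-fold change; the helicase, nucleotide and clamp genes lie below it, and 7 mitotic genes with means under 20 lie above it.

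None of the 6 subunits of the MCM helicase passed the threshold, and all 6 intervals lay within -1 to 1, with a median log2 fold change of 0.04. Mcm4 was measured at 299, 316 and 201 normalized counts in obese mice 1 to 3 and at 261, 181 and 243 in lean mice 1 to 3. The groups overlapped, with 2 obese mice highest and the third below 2 of the lean mice, and the log2 fold change was 0.24 (SE 0.21, 95% interval -0.23 to 0.71, limma adjusted p = 0.711). Mcm2 was at 121, 168 and 112 in the obese mice and at 185, 134 and 173 in the lean mice. Here 2 lean mice were highest and 2 obese mice lowest, and the log2 fold change was -0.30 (SE 0.21, limma adjusted p = 0.63).

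Mcm3 was at 119, 122 and 145 in the obese mice and at 116, 109.5 and 107 in the lean mice. The groups did not overlap, but the lowest obese and the highest lean mouse lay close together, and the log2 fold change was 0.21 (SE 0.18, limma adjusted p = 0.715). Mcm7 was at 319, 252 and 196 in obese and at 241, 303 and 201 in lean mice, fully overlapping, with a log2 fold change of 0.04. An unstranded count of Mcm7 could include reads of Ap4m1 and Cops6, which overlap it on the other strand, and no source used here says whether strand was used for the counts. Mcm5 and Mcm6 had log2 fold changes of -0.10 and 0.05. Mcm6 was the steadiest subunit, at 189 ± 0.714 in obese and 183 ± 12 in lean mice (SD, n = 3 each). Without obese mouse 3, Mcm4 reached an unadjusted p of 0.0397 with a log2 fold change of 0.45, but an adjusted p of 0.31.

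None of the genes of nucleotide supply and the clamp passed either, their median log2 fold change being 0.0022 and all 5 intervals within -1 to 1. Pcna, the sliding clamp, was at 500.3, 442 and 446 normalized counts in obese mice 1 to 3 and at 465, 529 and 470.0 in the lean mice. The groups overlapped, and the log2 fold change was -0.08 (SE 0.13, 95% interval -0.36 to 0.21, limma adjusted p = 0.865). Rrm1 and Rrm2, the large and small subunits of ribonucleotide reductase, had log2 fold changes of -0.11 and 0.00, thymidylate synthase (Tyms) 0.01 and thymidine kinase (Tk1) 0.08.

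The cyclins and Cdk1 were weakly expressed, and none of the 5 tested passed the threshold, with a median log2 fold change of -0.31. Ccne2, a cyclin of S phase entry and the most abundant of the group in reads, was at 36.2, 38.8 and 55.7 normalized counts in obese mice 1 to 3 and at 38.1, 54.8 and 41.5 in the lean mice. Here 1 mouse of each diet stood above the others, and the log2 fold change was -0.05 (SE 0.31, limma adjusted p = 0.974). The related cyclin Ccne1 had -0.13. Ccna2, which acts in S phase and entry into mitosis, had -0.31, and Ccnb2, a mitotic cyclin, -0.32. Cdk1, the kinase that drives mitosis, was at 6.03, 8.16 and 39.8 in the obese mice and at 14.6, 16.4 and 18.6 in the lean mice. Its highest and its 2 lowest values were all in obese mice, and the log2 fold change of -0.34 had a 95% interval of -1.85 to 1.17. Ccnb1, which was not tested, ran from 5.02 to 12.5, both in obese mice.

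The mitotic kinases and their partners had a median log2 fold change of 0.60, and none passed the threshold. Without obese mouse 3 this median was 0.22. Tpx2, which activates Aurora A on the spindle, was at 22.1, 36.7 and 42.0 normalized counts in obese mice 1 to 3 and at 20.2, 13.7 and 25.1 in the lean mice. Obese mice 2 and 3 lay above all lean mice, and the log2 fold change was 0.74 (SE 0.42, 95% interval -0.20 to 1.67, limma adjusted p = 0.534). Birc5 (survivin), a subunit of the chromosomal passenger complex, was at 12.1, 19.4 and 18.2 in the obese mice and at 3.36, 9.58 and 18.6 in the lean mice. Lean mouse 3 was at the level of the obese mice, lean mouse 1 was at 3 reads, and the log2 fold change was 0.83 (SE 0.66, limma adjusted p = 0.672), or 0.26 without lean mouse 1 and 1.34 without lean mouse 3.

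Plk1, the Polo kinase, was at 13.1, 8.16 and 32.9 in the obese mice and at 6.72, 6.16 and 16.4 in the lean mice, and its log2 fold change was 0.73 (SE 0.68, limma adjusted p = 0.726). Aurka (Aurora A) was at 19.1, 12.2 and 25 in the obese mice and at 16.8, 14.4 and 8.74 in the lean mice, and its log2 fold change was 0.46 (SE 0.51, limma adjusted p = 0.78). In both genes the groups overlapped and obese mouse 3 was highest, and without it the log2 fold changes were 0.20 for Plk1 and 0.23 for Aurka. Aurkb (Aurora B), the kinase of the passenger complex, had a log2 fold change of -0.27, and Cdca8 (borealin), another subunit, 0.46. Cdca8 overlaps a gene of the other strand.

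Among the genes of the spindle checkpoint and of the anaphase ubiquitin ligase, Cdc20, which activates that ligase, was at 22.1, 35.7 and 48.8 normalized counts in obese mice 1 to 3 and at 26.9, 31.5 and 26.2 in the lean mice. The obese mice held both the lowest and the 2 highest values, and the log2 fold change was 0.26 (SE 0.38, limma adjusted p = 0.84), or 0.00046 without obese mouse 3 and 0.56 without obese mouse 1. Ube2c, the ligase's ubiquitin-conjugating enzyme, was at 11.1, 10.2 and 23.9 in the obese mice and at 3.36, 9.58 and 8.74 in the lean mice. All obese mice lay above all lean mice, 2 of them by little, and the log2 fold change of 0.97 (SE 0.67, 95% interval -0.52 to 2.45, limma adjusted p = 0.62) was the highest of all members in the fit of all 6 mice. It was 0.56 without lean mouse 1, which was at 3 reads, and 0.60 without obese mouse 3, and other members then stood above it. Ube2c overlaps Tnnc2, a muscle gene on the other strand. The checkpoint kinase scaffold Bub1b had a log2 fold change of -0.19, and Bub1, not tested, ran from 1.00 to 14.8, both in obese mice.

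Of the kinetochore and spindle genes, Cenpf, which encodes a large kinetochore protein, was lower in the obese mice without passing the threshold. It was at 56.3, 37.7 and 68.1 normalized counts in obese mice 1 to 3 and at 90.7, 113 and 73.2 in the lean mice, or 54.0 ± 15.3 against 92.3 ± 19.9 (SD, n = 3 each). All lean mice lay above all obese mice, lean mouse 3 by the least, and the log2 fold change was -0.78 (SE 0.29, 95% interval -1.42 to -0.14, limma unadjusted p = 0.0214, adjusted p = 0.303). The unadjusted p was 0.0853 without obese mouse 2, 0.0508 without lean mouse 1 and 0.0887 without lean mouse 2. Its gene lies at chr1:189640606-189688086 on GRCm38 and overlaps Gm37239, a gene of the other strand. The motor of the kinetochore, Cenpe, was at 8.04, 10.2 and 27.3 in the obese mice and at 5.6, 6.16 and 10.9 in the lean mice. It leaned the other way, with overlapping groups and a log2 fold change of 0.78 (SE 0.68, limma adjusted p = 0.704), or 0.28 without obese mouse 3. The spindle motor Kif11 had -0.41 and the spindle protein Nusap1 0.04. Hmmr, which binds spindle microtubules and was not tested, ran from 1.00 to 14.8, both in obese mice.

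Of the central spindle proteins, Prc1, which bundles its microtubules, was at 18.1, 59.1 and 57.9 normalized counts in obese mice 1 to 3 and at 36.9, 43.8 and 53.6 in the lean mice. The lean mice lay between the extremes of the obese mice, and the log2 fold change was -0.15 (SE 0.45, limma adjusted p = 0.933), with the sign resting on obese mouse 1. Kif23 and Racgap1, the motor and the GTPase-activating subunit of centralspindlin, had log2 fold changes of 0.44 and 0.20. Mki67, the coat protein of mitotic chromosomes and the usual stain for cycling cells, was at 49.2, 50 and 90.9 in the obese mice and at 67.2, 89.7 and 45.9 in the lean mice. Each diet held 1 high mouse, and the log2 fold change was -0.10 (SE 0.34, 95% interval -0.84 to 0.64, limma adjusted p = 0.941). Top2a, the topoisomerase that untangles chromosomes, had 0.31 (95% interval -0.64 to 1.26).

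**Figure D2:**
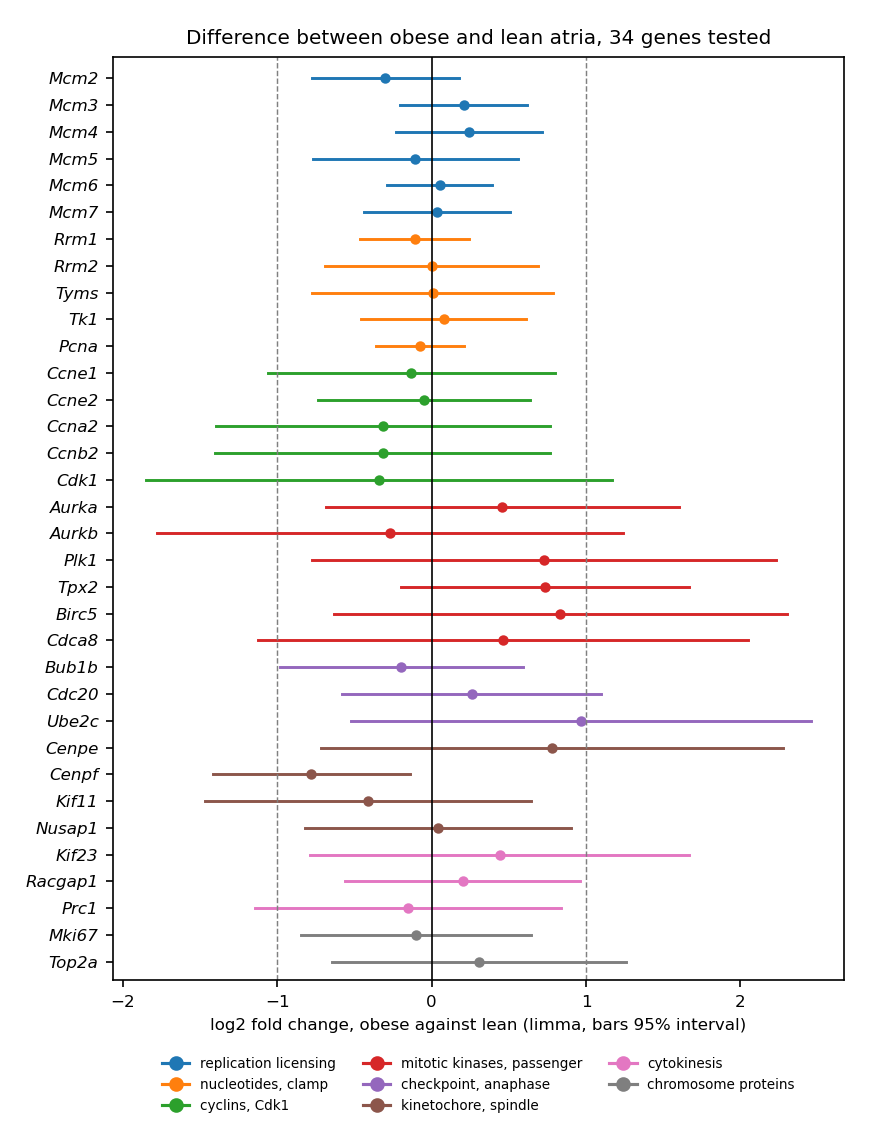
Log2 fold change of obese against lean mice for the 34 members tested, from limma on log2(normalized count + 1), with its 95% interval (n = 3 mice per group); colours give the role groups and dashed lines mark a 2-fold change. Every interval but that of Cenpf (-1.42 to -0.14) includes 0, and the narrowest is that of Pcna (-0.36 to 0.21).

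A further pattern lay within the obese group, which was noticed after the values were seen and has no test. Obese mouse 3 had the highest value of the 6 mice for 19 of the 37 members, and for 16 of the 34 tested, against 20.3% of all genes tested. This held for 12 of 18 genes in the mitotic kinase, checkpoint, kinetochore and cytokinesis groups (10 of the 16 tested). It also held for 3 of the 6 genes in the group of cyclins and Cdk1, for both chromosome proteins, and for 2 of 11 replication genes. In 6 members obese mouse 3 was at least 2 times the next highest mouse, against 0.766% of all genes: Cdk1, Plk1, Cdca8, Ube2c, Cenpe and Kif23. All 6 had a mean of 10 to 50 normalized counts, a range that holds 22 members. Of those 22, 13 were highest in obese mouse 3, against 16.6% of the 2926 genes in that range, and 1.85% of those genes were at least 2 times the next mouse there. Kif23 was at 55.7 in obese mouse 3 and at 13.7 to 23.5 in the other mice, and Top2a at 86.3 against 28.6 to 45.9. The count was 20 of 37 on counts scaled to the total reads, 19 of 37 with TMM factors and 17 of 34 after quantile normalization.

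Summed over the 18 mitotic genes, obese mouse 3 stood at 618 normalized counts (544 reads, exact Poisson 95% interval 567 to 672). Obese mice 1 and 2 were at 337 and 358, below the lean mice at 369, 420.2 and 419.7. The intervals of obese mice 1 (301 to 375) and 2 (321 to 397) overlap that of lean mouse 1 (331 to 412), so their order is within counting error. The sum over the 11 replication genes was lowest in obese mouse 3, at 1957 (95% interval 1866 to 2052), with the other mice at 1976 to 2091. That interval overlaps those of all other mice, so this rank is within counting error. The mean of log2(normalized count + 1) over the same genes was lowest in lean mouse 1 (7.156), with obese mouse 3 at 7.175. These intervals cover counting error only. Without obese mouse 3 the median log2 fold change of the mitotic genes went from 0.35 to -0.00032, and with another mouse left out it ran from 0.24 to 0.53. The median of the cyclins and Cdk1 also moved with single mice, from -0.31 to -0.56 without obese mouse 3, -0.09 without obese mouse 1, -0.04 without obese mouse 2 and 0.02 without lean mouse 2. That of the replication genes stayed between -0.03 and 0.08 with any mouse left out. The 37 members together made up 142 to 163 of every 1000000 reads on genes, with obese mouse 3 highest.

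**Figure D3:**
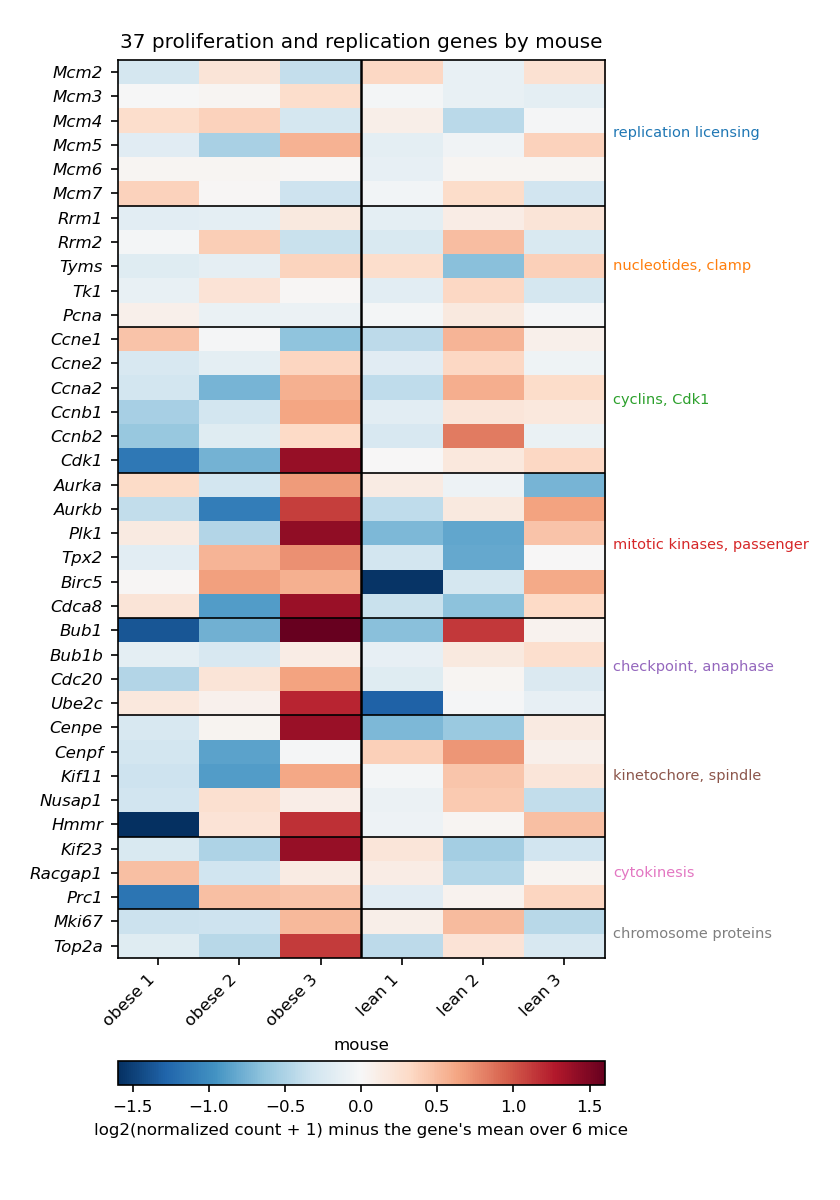
Each of the 37 members (rows, by role) in each of the 6 mice (columns), as log2(normalized count + 1) minus the gene's mean over the mice, red above and blue below that mean. The column of obese mouse 3 is red in most rows from Cdk1 down, where it holds the highest value for 12 of the 18 mitotic genes, while the helicase and nucleotide rows are paler.

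The markers of other cell types were read in the same mice. The 4 T cell markers, Cd3d, Cd3e, Cd2 and Lck, were also all highest in obese mouse 3, as were 20.3% of all genes tested. Only Lck averaged 10 or more and was tested, and Cd3e was at 15.9 in obese mouse 3 and at 14.6 in lean mouse 1. The sum of the 4 markers in obese mouse 3 was 103 normalized counts (91 reads, 95% interval 83.2 to 127). It was 16.1 and 25.5 in obese mice 1 and 2 and 19.7 to 36.9 in lean mice. Of the immature thymocyte markers, Rag1, Rag2 and Dntt were at 0 in all 6 mice, and the sum of the list was at most 5.6. Ccnd1, a cyclin of cell cycle entry chosen after its values were seen, was at 965 in obese mouse 3 and at 426 to 583 in the others. The part of T cells in the mitotic genes of obese mouse 3 was not tested. Fewer cells of a type and less RNA per cell cannot be told apart in RNA of whole tissue.

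**Figure D4:**
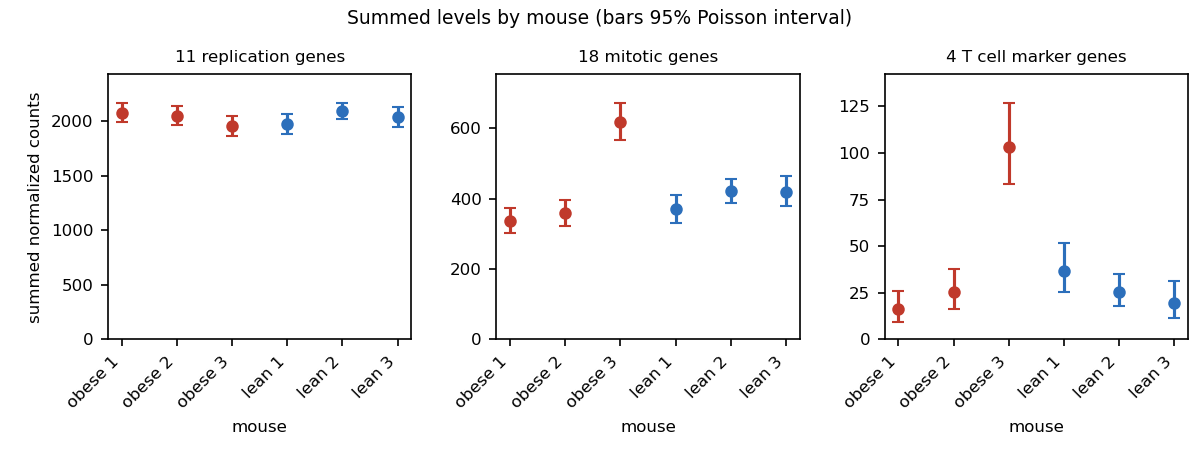
Summed normalized counts per mouse of the 11 replication genes, the 18 mitotic genes and the 4 T cell markers, obese mice in red and lean mice in blue, with exact 95% Poisson intervals for counting error; each axis starts at 0. Obese mouse 3 is highest in the mitotic sum (618) and the T cell sum (103). It is lowest in the replication sum (1957), where its interval overlaps those of all other mice.

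The atrial myocyte markers Myl7, Myl4, Nppa, Sln and Myh6 were abundant in every mouse, as the label of the tissue says. Their sums were 557783 and 664103 normalized counts in obese mice 1 and 2, 972027 in obese mouse 3 and 862964 to 905884 in the lean mice. Obese mouse 3 was highest for 3 of these 5 markers, against 20.3% of all genes tested. At an unadjusted p under 0.05, 2 of these 5 were lower in obese mice, against 5.55% of all genes, and 0 of 5 passed the adjusted threshold. The 4 ventricular markers summed to 17399 in lean mouse 2 and 6882 to 9866 in the others. Of 7 macrophage markers, 3 were higher in obese mice at an unadjusted p under 0.05, against 6.66% of all genes. Of these 3, 1 passed the adjusted threshold, Itgam (limma adjusted p = 0.0106), against 0.484% of all genes. The sums of the 7 macrophage markers were 5420 to 5658 in obese and 4057 to 5032 in lean mice. For 5 of the 7 markers taken 1 by 1 the groups overlapped, and Csf1r had a log2 fold change of -0.0086. Fcgr1 was at 143 in obese mouse 3 and at 51.2 and 44.9 in obese mice 1 and 2. The sums of the 5 endothelial markers were 14035 to 15172 in obese and 11897 to 12602 in lean mice. Of these, 1 was higher in obese mice at an unadjusted p under 0.05, against 6.66% of all genes. This was Pecam1 (log2 fold change 0.57, limma adjusted p = 0.0504), and the other 4 ran from -0.19 for Egfl7 to 0.18 for Tek. No marker of the fibroblast, mural, B cell, neutrophil, myeloid precursor, erythroid, mesothelial, white adipocyte or Schwann cell lists passed the adjusted threshold (none of the neutrophil, myeloid precursor and immature thymocyte markers reached a mean of 10, so these were not tested), and of the B cell markers only Cd79b was tested. The sums of 3 of these lists did not overlap between groups, at 9948 to 10323 in obese against 8408 to 9433 in lean mice for mural, at 10.2 to 32.1 against 2.19 to 6.16 for neutrophil and at 315 to 468 against 494 to 620 for Schwann cell markers. Singly, the groups overlapped for all 4 mural markers, and Kcnj8 was lower in obese mice (log2 fold change -0.17). They also overlapped for 2 of 3 neutrophil and 2 of 3 Schwann cell markers. The part of these cell types in the levels of the members was not tested.

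Around the members, 123 further cell cycle genes were read in 4 lists, and 91 of them were tested. Of these, 1 passed the adjusted threshold, higher in obese mice (0.484% of all genes did so), and 0 were lower (0.262%). At an unadjusted p under 0.05, 4 were higher and 5 lower, against 6.66% and 5.55% of all genes. The groups did not overlap for 5 genes higher and 12 lower in obese mice, against 8.86% and 9.17% of all genes. The median log2 fold change was 0.02 over the 91 genes. Among the 25 tested genes of replication initiation and the fork, 1 was higher and 1 lower at an unadjusted p under 0.05, beside the same shares of all genes. Uhrf1, which guides maintenance of DNA methylation at the fork, was at 46.2, 28.6 and 52.2 in the obese mice and at 20.2, 24.6 and 18.6 in the lean mice. The groups did not overlap, and the log2 fold change was 0.94 (SE 0.37, limma adjusted p = 0.34). Dut, the dUTPase that keeps uracil out of DNA, was at 232, 181 and 207 in the obese mice and at 282, 301 and 258 in the lean mice. All obese mice lay below all lean mice, with a log2 fold change of -0.44 (SE 0.16, limma adjusted p = 0.28).

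In the list of mitosis and chromosome segregation, 23 of 45 genes were tested. At an unadjusted p under 0.05, 0 of them were higher and 2 lower, against 6.66% and 5.55% of all genes. Cenpa, the histone H3 variant that marks centromeres (chr5:30666777-30674827), was at 273, 301 and 398 normalized counts in obese mice 1 to 3 and at 489, 549.6 and 612 in the lean mice. The groups were well apart, and the log2 fold change was -0.78 (SE 0.17, 95% interval -1.15 to -0.41, limma adjusted p = 0.0677). Of the 6 limma fits with a mouse left out, 1 passed the threshold, that without obese mouse 3 (log2 fold change -0.93, adjusted p = 0.0129). The highest adjusted p of these fits was 0.249. Cenpa also passed with DESeq2 on the recovered reads (adjusted p = 0.00411) and in limma with the replicate block (adjusted p = 0.0432). It did not pass in limma without the variance trend (adjusted p = 0.234) or with edgeR (adjusted p = 0.0748). Kifc1, a motor that focuses spindle poles, was at 9.04, 6.12 and 27.3 in the obese mice and at 28, 40.4 and 42.6 in the lean mice. The groups did not overlap, although obese mouse 3 nearly reached lean mouse 1, and the log2 fold change was -1.57 (SE 0.55, 95% interval -2.78 to -0.35, limma adjusted p = 0.271). Obese mouse 3 was highest for 13 of all 45 genes (28.9%) but for 3 of the 23 tested, against 20.3% of all genes tested.

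Of 34 tested genes of cell cycle entry and its control, 3 were higher and 2 lower at an unadjusted p under 0.05 (6.66% and 5.55% of all genes). Cdkn1a, which encodes p21, was at 2139.7, 2427 and 2943 in the obese mice and at 545, 541 and 411 in the lean mice. It rose in obese mice, from 499 ± 76.2 to 2503 ± 407 normalized counts (SD, n = 3 each), with a difference of 2.32 on the log2 scale (SE 0.16, limma adjusted p = 0.000185, and 0.0562 without the variance trend). Cdkn1c, which encodes the related inhibitor p57, was at 217, 228 and 184 in the obese mice and at 347, 310.0 and 299 in the lean mice. Here the groups were apart in the other direction, with a log2 fold change of -0.60 (SE 0.15, limma adjusted p = 0.11). Cdk6, a kinase of cell cycle entry, was at 52.2, 70.4 and 72.7 in the obese mice and at 43.7, 21.9 and 45.9 in the lean mice, and its log2 fold change was 0.85 (SE 0.34, limma adjusted p = 0.353). These groups did not overlap either. E2f3, an activating E2F, was at 249, 294 and 303 in the obese mice and at 202, 189 and 242 in the lean mice, with a log2 fold change of 0.42 (SE 0.16, limma adjusted p = 0.328). E2f5, a repressing E2F, was at 109, 96.9 and 65.9 in the obese mice and at 129, 136 and 122 in the lean mice, with a log2 fold change of -0.53 (SE 0.23, limma adjusted p = 0.382). Of the 9 tested genes of recombination and the S phase checkpoint, 0 passed at an unadjusted p under 0.05 (12.2% of all genes did). Their median log2 fold change was -0.02.

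**Figure D5:**
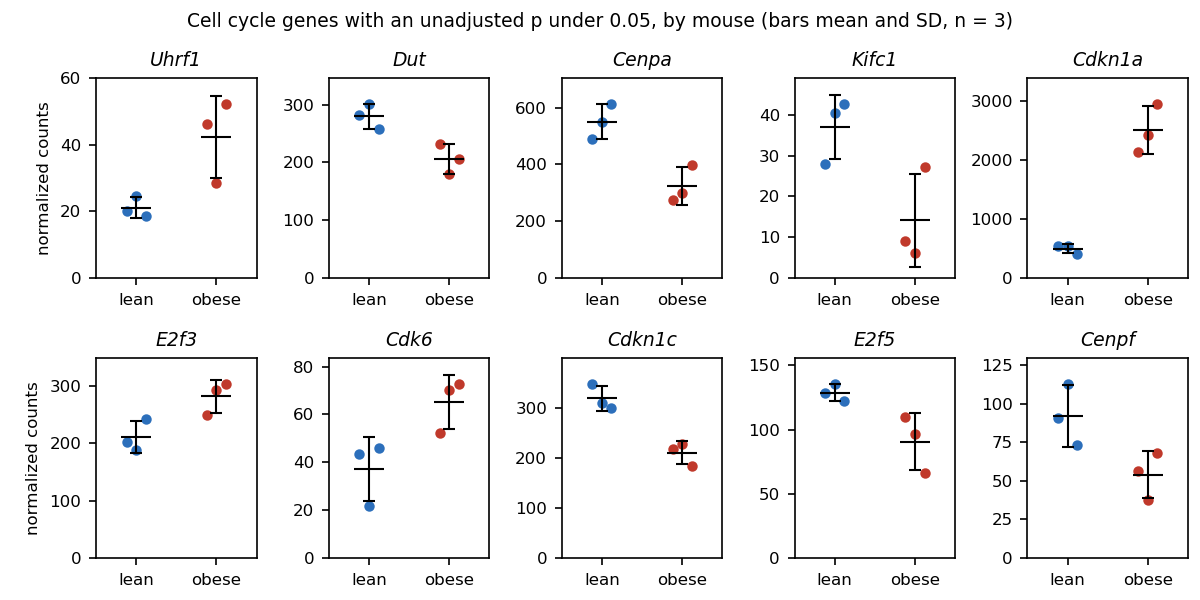
Normalized counts in each mouse for the 9 genes of the 4 further lists with an unadjusted p under 0.05 and for Cenpf, lean in blue and obese in red, with the mean and SD (n = 3) as black bars; each axis starts at 0. The groups do not overlap in any of the 10 panels, and only Cdkn1a (499 in lean and 2503 in obese mice) passed the adjusted threshold.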

How the data were processed

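RNA from the atria of 3 obese and 3 lean C57BL/6J mice was sequenced by the authors as single-end reads of 50 bases from stranded libraries, checked with FastQC and aligned with STAR to GRCm38 (Ensembl 79). Uniquely mapped reads were assigned to genes with Salmon, and DESeq2 compared the groups; tool versions are not given in the sources used here. The deposited signal of a gene is its read count divided by 1 DESeq2 size factor per sample. The authors also deposited a mean over all samples, a log2 fold change with its error, 2 scores (the Wald statistic and a ranking metric) and p-values, which were not used.

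Division of a sample's values by its value of 1 read gave back the reads, as whole numbers (within 0.01 of a read) for 100% of values. One row without a gene identifier held no reads and was left out. As the table holds normalized values, limma 3.58.1 in R 4.3.3 (variance trend) was run on log2(normalized count + 1) over all 6 samples without a covariate, for the 15275 genes averaging 10 or more, and an adjusted p (Benjamini-Hochberg) under 0.05 was called. A fold change on this scale understates that of weakly expressed genes. The limma p-values test the difference between the groups against the variance between mice of a group, moderated toward that of genes of like expression.

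The members, the 8 role groups, the 4 further cell cycle lists and the cell type markers were chosen with earlier results of these data known. Values in every mouse are given for the 10 members with the smallest p and for the member with the highest mean in each role group, and in each further list for up to 3 genes per direction with the smallest p among those with an unadjusted p under 0.05. Further values of Cdk1, Top2a, Kif23 and Ccnd1 were added after they were seen. Promoters are those of RefSeq. Exon lengths come from GENCODE on GRCm38, whose identifiers matched 97.8% of genes. Overlapping genes were found from the gene coordinates that the authors deposited. Reads shared by near-identical or overlapping genes are uncertain, and 11 members overlap a gene of the other strand. Alternatives were quantile normalization, no variance trend, a pseudocount of 0.1, other filters, edgeR 4.0.16 and DESeq2 1.42.0 on the recovered reads, the replicate number as a block, and each mouse left out; 3 other scalings for obese mouse 3 were added after seeing the data. Python 3.11.15 and pandas 2.3.3 were used for tables.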

Additional observations from a re-analysis of the deposited data

How the results depend on the processing

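Across the 14 alternatives, 0 members had an adjusted p under 0.05. With each mouse left out, members with an unadjusted p under 0.05 numbered 0 to 1 higher (Mcm4 without obese mouse 3) and 0 to 1 lower (none without obese mouse 2, lean mouse 1 or lean mouse 2), and the members' median log2 fold change ran from -0.08 to 0.10. Over all genes the count with an adjusted p under 0.05 was 114 and depended on the setting: 0 without the variance trend (1717 at an unadjusted p under 0.05), 467 with DESeq2, 87 with edgeR, and 14 (without lean mouse 2) to 318 (without obese mouse 3) with a mouse left out. It was 50 without obese mouse 1, 24 without obese mouse 2, 48 without lean mouse 1 and 19 without lean mouse 3. In the further lists, leaving out a mouse gave 1 to 2 fork genes, 1 to 3 mitosis genes, 2 to 6 entry genes and 0 to 1 recombination genes at an unadjusted p under 0.05. At an adjusted p under 0.05 it gave 0 to 1 mitosis genes and 1 to 2 entry genes. The mitosis list had 1 adjusted call with DESeq2 and 1 with the replicate block, and 1 unadjusted call with a minimum of 10 in every sample. The entry list had 0 adjusted calls without the variance trend, and the recombination list 1 unadjusted call without a filter. Of 344 alternatives for 25 named genes, 11 turned the sign: Mcm7 (-0.14 to 0.21 with a mouse left out), Ccne2 (-0.24 to 0.10), Mki67 (-0.39 to 0.13) and Prc1 (-0.43 to 0.40, 0.0032 with edgeR and 0.0064 with DESeq2). The cause of these changes was not tested, beyond the fewer mice or genes that a setting leaves. Same-numbered mice deviated from their group means with correlations of 0.12, -0.03 and -0.0039. Deviations from means of only 3 mice cannot decide whether the numbers pair the mice. With the replicate block, 157 genes had an adjusted p under 0.05 (101 shared with the 114), Cenpa among them (adjusted p = 0.0432), and 1 member an unadjusted p under 0.05. Obese mouse 1 correlated best with lean mouse 1 (0.12), but obese mouse 2 with lean mouse 3 (0.16). Depth limits the 25 members under 50 normalized counts most, and 6 of their values were at or under 3 reads.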
